A study of Mus musculus with 7 samples.

Results

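Potassium channel genes were taken from the GENCODE mouse annotation as all protein-coding genes whose symbol begins with Kcn, without Kcnj11 and Kcnj8, the pore genes of the ATP-sensitive channel. Their number was 92 of 21938 protein-coding genes. No peak was used to choose them. By symbol, 40 genes encode voltage-gated alpha subunits, 13 inward rectifiers, 14 two-pore channels, 8 calcium- or sodium-activated channels, and 17 auxiliary subunits and other members.

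Potassium channels let potassium leave the cell and hold or return the membrane potential to negative values. In islet cells they set the resting potential, end action potentials, and limit calcium entry, and with it the release of glucagon, insulin, and somatostatin. Open chromatin at a transcription start site (TSS) is common at genes that are transcribed or kept ready for transcription, but it is not a measure of transcript level.

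ATAC-Seq, in which the Tn5 transposase cuts and tags open DNA, was applied to FACS-sorted alpha, beta, and delta cells of healthy mouse islets. The mice carried mIns1-H2b-mCherry, a nuclear reporter driven by an Ins1 promoter that marks beta cells, and Rosa-LSL-YFP together with Gcg-Cre or Sst-Cre, so that Cre expressed from the glucagon or somatostatin gene switched on YFP in alpha or delta cells. All 3 cell types therefore came from triple transgenic mice, pooled by sex, and neither the age nor the background strain was given in the sources used here. The data are the peak calls of 7 libraries, 2 alpha, 3 beta, and 2 delta, which the labels call biological replicates. The question was which channel genes lie in open chromatin in which endocrine cell type.

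The libraries differed in ways that touch every count. A list held between 75860 (delta 2) and 518503 (beta 1) distinct peaks, and beta 1, with the longest list, had the smallest share of peaks whose -log10 q reached 2, at 5.0% against 29.8% to 54.9% in the others. The 3 beta lists were deposited under file names that give a different cell type, and the labels were followed throughout. By the published library statistics, unique reads were fewest in beta 1, and each beta library had fewer than both alpha libraries and delta 1. The part of depth in the lower beta counts was not tested. Of 6 alpha marker genes, all had a TSS peak in both alpha libraries and 2 in all 3 beta libraries. All 4 delta markers had one in both delta libraries and 3 of the 4 in both alpha libraries. None had one in beta 2 or beta 3, but 3 of the 4 had one in beta 1. The Sst peak reached a -log10 q of 2 in beta 1 and in neither delta library. Of 8 beta markers, 3 had a TSS peak in all 3 beta libraries, and the same 3 genes, Ins1, Mafa, and Nkx6-1, had one in all 7 libraries, whereas G6pc2 and Slc2a2 had none in any. Thus, by presence alone the beta markers did not set the beta libraries apart. By the rank of the peak among all genes of a library, which is defined below, every beta library was above every other library for Ins1 (56.3 to 82.4 against 41.0 to 50.1) and Nkx6-1 (82.6 to 90.6 against 69.6 to 81.4), but not for Mafa. The Ins1 peak of beta 2, however, did not reach a -log10 q of 2, whereas that of delta 1 did. Of 6 genes that mark leukocytes, endothelium, exocrine pancreas, ducts, and fibroblasts, at most 3 had a TSS peak in any 1 library, and none reached a -log10 q of 2. Their part in the results was not tested.

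Any peak that came within 1 kb of a gene's 5′ end was taken as its TSS peak. Of the 92 channel genes, 54 and 59 had one in alpha 1 and 2, 57, 31, and 50 in beta 1, 2, and 3, and 58 and 47 in delta 1 and 2. As a share of the channel genes, alpha cells had 61.4% ± 3.84 (SD, n = 2), beta cells 50.0% ± 14.6 (SD, n = 3), and delta cells 57.1% ± 8.45 (SD, n = 2). The beta libraries overlapped both other cell types, with beta 2 lowest of all at 33.7%. In the same libraries the share of all protein-coding genes was 61.2% ± 1.03 for alpha, 58.5% ± 10.5 for beta, and 59.3% ± 4.24 for delta cells (SD, n = 2, 3, and 2). Alpha 2 and delta 1 had a higher share of channel genes than of all genes, and the other 5 libraries a lower one. When only peaks whose -log10 q reached 2 were counted, the channel genes had the lower share in every library, from 51.1% against 56.0% in alpha 2 to 23.9% against 39.3% in beta 2. In each library a larger part of the TSS peaks of channel genes than of all genes was of low confidence.

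**Figure D1:**
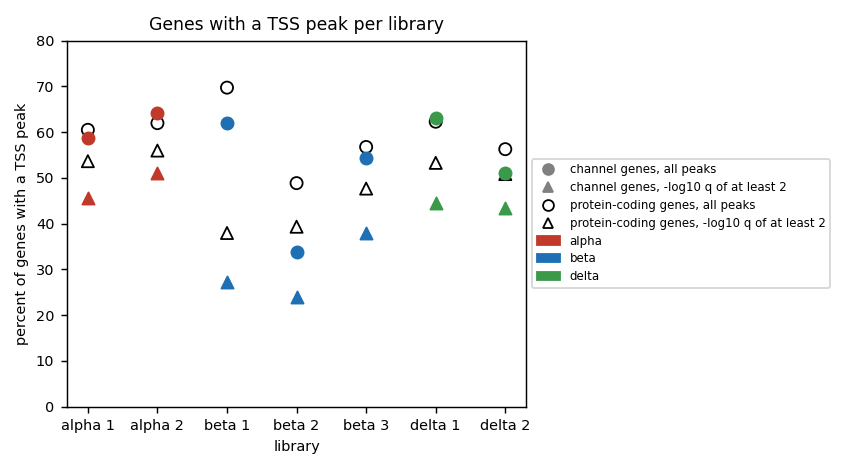
Percent of genes with a TSS peak (y axis) in each of the 7 libraries (x axis). Filled symbols are the 92 potassium channel genes, colored by cell type, and open symbols all 21938 protein-coding genes, with circles for all peaks and triangles for peaks whose -log10 q reached 2. Every filled triangle lies below the open triangle of its library, and beta 2 has the lowest filled circle, at 33.7%.

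Alpha cells had 49 channel genes (53.3%) with a TSS peak in 2 or more libraries, and beta and delta cells had 45 each (48.9%). Of all protein-coding genes, 56.8%, 56.1%, and 54.1% met the same rule. It asks for 2 of 3 libraries in beta cells but for both libraries in alpha and delta cells, so it is easier to meet in beta cells. The beta number was 27 without beta 1 and 26 without beta 3, as 2 lists then had to share the peak. Channel genes with a TSS peak in all 7 libraries numbered 21, or 22.8%, against 41.5% of all genes. Those with none in any library numbered 13, or 14.1%, against 17.3%. Thus 58 channel genes (63.0%, against 41.2% of all genes) had a TSS peak in some libraries but not in all. Of the 16 channel genes with a TSS peak in 6 libraries, 9 lacked it in beta 2 alone (56.3%, against 66.7% of all genes with 6). Without beta 2, 30 channel genes (32.6%) had a TSS peak in all remaining libraries, against 47.2% of all genes.

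**Figure D2:**
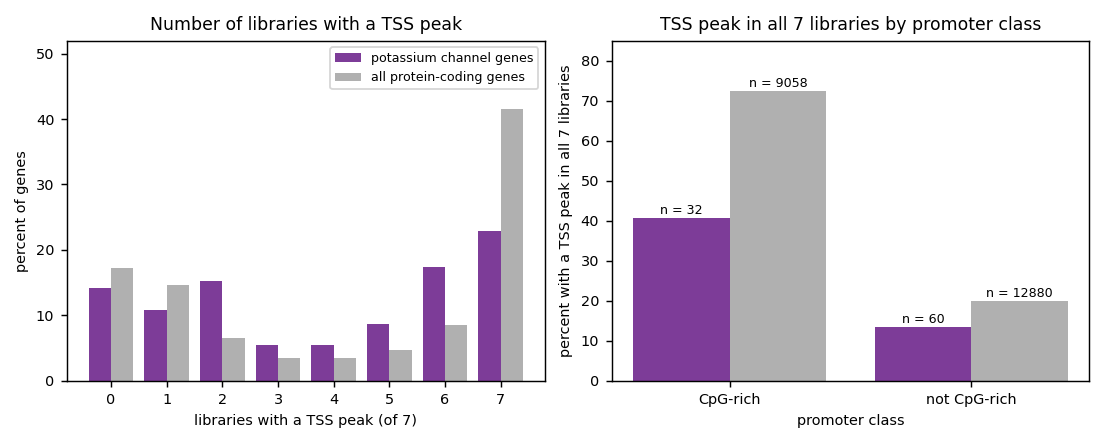
Left, percent of genes (y axis) by the number of libraries with a TSS peak (x axis, 0 to 7), for the 92 potassium channel genes (purple) and all 21938 protein-coding genes (gray). Right, percent with a TSS peak in all 7 libraries (y axis) among genes whose promoter is CpG-rich or not (x axis), with the number of genes above each bar. The purple bar is lower than the gray at 7 libraries (22.8% against 41.5%) and in both promoter classes.

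CpG content was examined because CpG-rich promoters are open in most tissues. A promoter, here 250 bases before to 50 after the TSS, was called CpG-rich when its CpG ratio of observed to expected was at least 0.6 and its GC content at least 50%. This held for 32 of the 92 channel genes (34.8%) and for 41.3% of all genes. Among CpG-rich promoters, 13 of 32 channel genes (40.6%) had a TSS peak in all 7 libraries, against 72.5% of all genes of that class. Among the other promoters the number was 8 of 60 (13.3%), against 19.8%. The lower share of channel genes open in every library was therefore seen within each class.

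The levels of single genes were compared by a TSS rank percentile, the rank of the strongest TSS peak of a gene by -log10 p among all protein-coding genes of that library, from 0 to 100. Genes without a TSS peak share a rank between 15.1 and 25.6, according to the library, so that the ranks of such genes differ between libraries without any difference in signal. The rank of a called peak also depends on the peaks of all other genes, so a weaker peak can rank higher in another library. Cell types were compared in an exact permutation test without direction over the 210 ways to divide the libraries into sets of 2, 3, and 2, whose smallest p is 0.00952. The test was made for every protein-coding gene, with Benjamini-Hochberg adjustment over all of them, and the lowest adjusted p of any gene was 0.802. No channel gene passed. An unadjusted p under 0.05 was found for 6 channel genes (6.52%) and for 5.5% of all genes, so the channel genes did not stand out, and the values below are a description of the libraries. With genes that lack a TSS peak set to 0 in every library, 4 channel genes (4.35%) and 5.0% of all genes had an unadjusted p under 0.05, and the lowest adjusted p was 0.839.

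**Figure D3:**
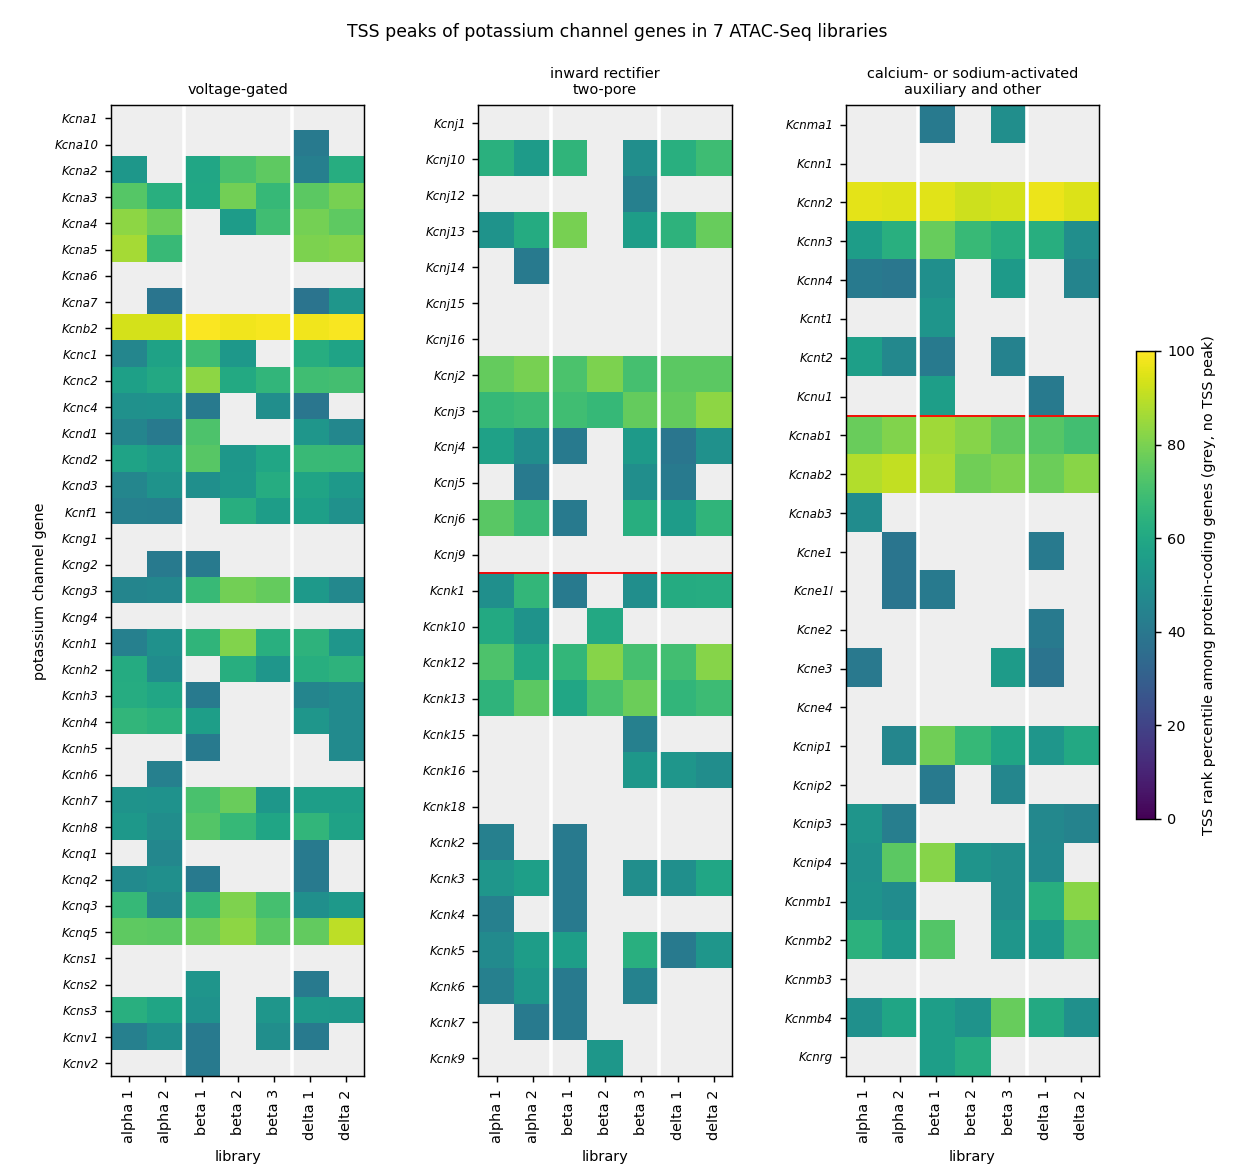
TSS rank percentile (color scale, 0 to 100) of 89 potassium channel genes (rows, by class, with a red line between 2 classes in a panel) in the 7 libraries (columns, with white lines between cell types). Gray marks a gene without a TSS peak in that library. Kcnb2 and Kcnn2 are in the top colors in every column, whereas the column of beta 2 holds the most gray.

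Among the voltage-gated alpha subunits, 25 of 40 had a TSS peak in both alpha libraries, 20 in 2 or more beta libraries, and 24 in both delta libraries. The number with a TSS peak in all 7 libraries was 12 and in none 5 (Kcna1, Kcna6, Kcng1, Kcng4, and Kcns1). Kcnb2, a delayed rectifier subunit, had the highest median rank of all channel genes. Its TSS rank percentile was 93.7 in both alpha libraries, 99.5, 97.9, and 98.8 in beta 1, 2, and 3, and 97.7 and 98.9 in delta 1 and 2. By rank, every beta and delta library was above both alpha libraries (exact permutation p = 0.0571, adjusted p = 0.811), and all 7 lay near the top. By -log10 q, beta 2 was the lowest, at 32.7 against 38.5 and 48.8 in alpha 1 and 2. The other beta and delta libraries were above both alpha libraries by that value too.

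Kcna5 encodes a delayed rectifier subunit best known from atrial muscle. Its TSS peak had a -log10 q of 24.6 and 13.6 in alpha 1 and 2 and of 25 and 18.9 in delta 1 and 2, and no beta library had a peak within 1 kb. The fold enrichment at the summit was 13 and 9.76 in the alpha and 12.7 and 11.2 in the delta libraries. The TSS rank percentile was 77.0 ± 13.3 in alpha (SD, n = 2), 20.8 ± 5.27 in beta (SD, n = 3), where all values are those of a gene without a peak, and 80.9 ± 0.788 in delta cells (SD, n = 2). Alpha and delta libraries did not overlap the beta libraries (exact permutation p = 0.0286, adjusted p = 0.802). The summits lay between -77 and 20 bp from the TSS, upstream being negative, and the peaks spanned it in all 4 libraries. The nearest beta peak began 1135 bp downstream, in beta 1, with a -log10 q of 0.0774.

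The promoter of Kcna5 (GRCm38, chr6:126535363-126535662, minus strand) is shown because it carries this difference. Capitals mark CATCTG, an E-box bound by NEUROD1 among others, the only motif of those searched that it holds, and it is not CpG-rich.
Kcna5: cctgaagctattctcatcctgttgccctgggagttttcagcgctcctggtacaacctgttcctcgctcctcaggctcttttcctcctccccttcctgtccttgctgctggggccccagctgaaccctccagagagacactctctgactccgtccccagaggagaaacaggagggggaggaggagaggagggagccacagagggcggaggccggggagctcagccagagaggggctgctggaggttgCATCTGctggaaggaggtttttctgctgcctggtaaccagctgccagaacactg

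The Kcna5 peak was not alone in its locus. Within 20 kb of the gene, 2 more regions were called in every alpha and delta library and in no beta library, 8.14 kb and 19.5 kb downstream of the TSS. The first, chr6:126527043-126527503, had a -log10 q of 3.29 and 7.53 in the alpha and 11.0 and 2.64 in the delta libraries. The second, chr6:126515721-126516194, was weaker, at 0.778 and 1.16 in the alpha and 3.02 and 5.45 in the delta libraries. By contrast, a region at -16.8 kb was called in all 7 libraries, so beta peaks were not missing from the whole locus. The locus was also among the 3 densest of the channel genes, with 11.5 peaks per 100 kb and per 100000 peaks of the library on average, next to Kcna2 at 11.7 and Kcnj9 at 11.5.

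Kcng3, which encodes a modifying subunit that forms channels only together with Kcnb subunits, was open in every library, with its highest ranks in beta cells. The TSS rank percentile was 67.6, 78.6, and 76.2 in beta 1, 2, and 3, against 45.4 and 46.5 in the alpha and 53.6 and 46.6 in the delta libraries. By rank, every beta library was above every other library (exact permutation p = 0.00952, the smallest this design can give, adjusted p = 0.802). The -log10 q did not follow this order, at 2.79, 6.71, and 11.0 in beta 1, 2, and 3. It was 1.54 and 2.74 in the alpha and 5.09 and 1.93 in the delta libraries, so delta 1 was above beta 1. In the 3 beta libraries the summit of the strongest peak lay at -104 to -82 bp from the TSS. In alpha 1 the single peak lay 434 bp downstream, and in alpha 2 the strongest was at -1121 bp. In both delta libraries a peak covered the start as well. With only peaks whose -log10 q reached 2, the exact permutation p was 0.105.

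The Kcng3 promoter (chr17:83631846-83632145, minus strand) is CpG-rich, with a GC content of 82.0%, and is shown in contrast to that of Kcna5. None of the motifs searched occurs in it, so no letter is in capitals.
Kcng3: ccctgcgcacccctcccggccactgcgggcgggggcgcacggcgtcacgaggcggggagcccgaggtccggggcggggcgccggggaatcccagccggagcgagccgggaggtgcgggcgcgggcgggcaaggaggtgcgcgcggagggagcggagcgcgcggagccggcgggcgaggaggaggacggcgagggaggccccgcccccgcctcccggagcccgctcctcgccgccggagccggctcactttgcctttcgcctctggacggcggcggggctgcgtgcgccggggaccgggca

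**Figure D4:**
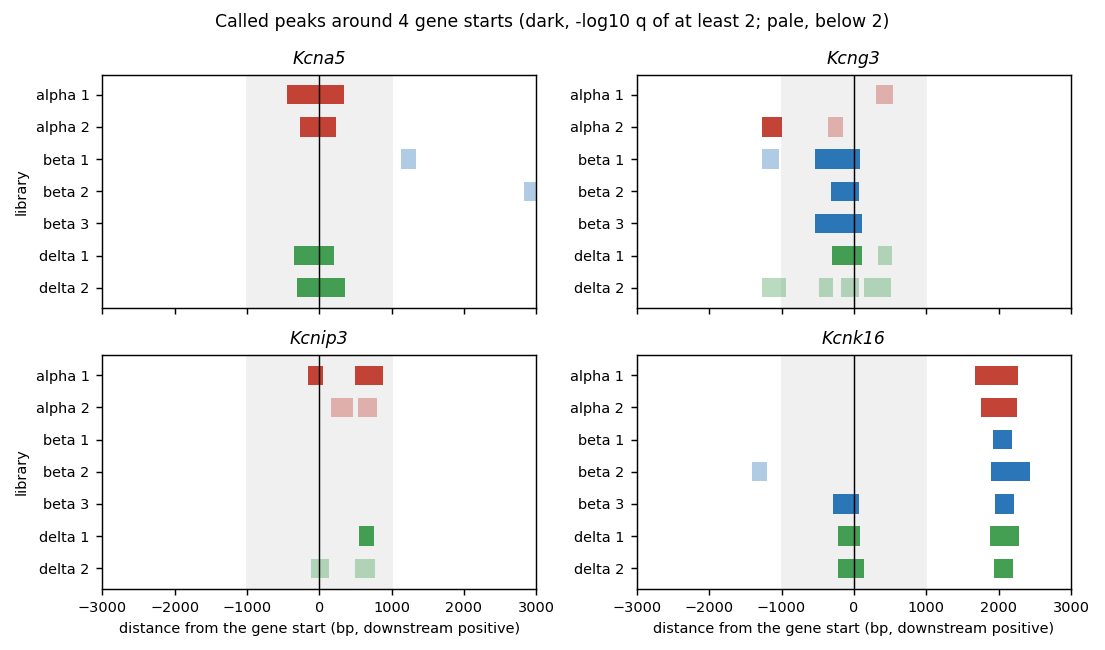
Called peaks (bars) around the gene starts of Kcna5, Kcng3, Kcnip3, and Kcnk16, by distance from the start in bp (x axis, downstream positive) and library (y axis), in red for alpha, blue for beta, and green for delta. Dark bars have a -log10 q of 2 or more and pale bars less, and gray shading marks the 1 kb window on either side. No blue bar lies in the shading of Kcna5 or Kcnip3, 3 dark blue bars cover the start of Kcng3, and all 7 libraries have a bar near 2 kb downstream in Kcnk16.

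Kcnh3, of the ether-a-go-go group, had a TSS rank percentile of 61.8 and 59.2 in the alpha and 45.4 and 47.9 in the delta libraries. In beta 1 it was 40.9, from a peak with a -log10 q of 0.0774, and beta 2 and 3 had no TSS peak (exact permutation p = 0.0381, adjusted p = 0.811, or 0.105 before adjustment with genes that lack a TSS peak set to 0). The groups did not overlap, with alpha highest and beta lowest. Kcna7, a Shaker-type subunit, had TSS peaks in alpha 2 and both delta libraries, but those of alpha 2 and delta 1 had a -log10 q of only 0.182 and 0.199. Kcna2 had a TSS peak in every library except alpha 2, with ranks of 59.1 to 75.2 in beta and 43.3 and 62.2 in delta cells.

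Kcnh2 and Kcnh6 encode ERG channels, which repolarize excitable cells including beta cells. Kcnh2 had a TSS peak in all libraries except beta 1, at ranks between 48.7 and 64.5. Kcnh6 had one in alpha 2 alone, with a -log10 q of 1.81. Kcnq1, the subunit of the slow cardiac delayed rectifier, had one in alpha 2 (-log10 q 2.54) and delta 1 (0.951). For Kcnq1, 3 intronic regions were nevertheless called in all 7 libraries, 13.1, 190.3, and 262.1 kb into the gene, of which the middle one lies 73 bp from the start of the antisense transcript Kcnq1ot1.

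The promoter of Kcnh6 (chr11:106007874-106008173, plus strand) is shown for a feature that only 11 of all 21938 promoters have (0.0501%), and no other channel gene. It holds both the left and the right motif of RE1, the element bound by the neuronal gene repressor REST, with the left before the right on 1 strand. Their gap here is 7 bases, whereas the 11 promoters were counted with any short gap between the motifs. Capitals mark the left motif (TTCAGCACC), the right motif (GGACAGC), and TGCTGA, the core of a MAF site. The reverse complement of TGCTGA lies within the left motif.
Kcnh6: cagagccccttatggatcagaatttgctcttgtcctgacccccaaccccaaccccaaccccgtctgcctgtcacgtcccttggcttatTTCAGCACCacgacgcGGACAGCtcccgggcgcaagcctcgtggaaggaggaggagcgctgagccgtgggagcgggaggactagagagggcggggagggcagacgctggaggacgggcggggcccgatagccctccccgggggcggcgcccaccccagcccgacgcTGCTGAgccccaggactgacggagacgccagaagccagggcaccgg

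Of the 13 inward rectifiers, 6 had a TSS peak in both alpha libraries, 6 in 2 or more beta libraries, and 6 in both delta libraries, with 2 in all 7 libraries and 4 in none (Kcnj1, Kcnj15, Kcnj16, and Kcnj9). Kcnj2, the classical strong inward rectifier, and Kcnj3, a subunit of the G protein-gated channels through which somatostatin and adrenaline hyperpolarize islet cells, were open everywhere. The TSS rank percentile of Kcnj3 was 66.9 and 68.5 in the alpha, 69.5, 67.2, and 76.2 in the beta, and 76.2 and 83.0 in the delta libraries. Its partners differed from it. Kcnj6 ranked 74.3 and 67.8 in the alpha and 55.1 and 65.6 in the delta libraries, whereas in the beta libraries it was 62.7 in beta 3, rested on a peak with a -log10 q of 0.0774 in beta 1, and had no TSS peak in beta 2 (exact permutation p = 0.143, adjusted p = 0.811). Kcnj5 had only weak TSS peaks, with a -log10 q between 0.951 and 1.43, in 1 library of each cell type. Kcnj9 had none in any library. Its locus still held 4 regions called in all 7 libraries, 3 of them downstream and inside the neighbor Igsf8 and 1 in an exon of Kcnj9, 2.97 kb from its start. Kcnj12, also a strong inward rectifier, had a TSS peak in beta 3 alone, with a -log10 q of 0.517.

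Kcnj10, Kcnj13, and Kcnj4 had a TSS peak in every library except beta 2, as did Kcnj6, so for these 4 genes 1 library decided that the gene was not open everywhere.

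Of the 14 two-pore channels, which carry background currents, both alpha libraries had called a TSS peak for 7, at least 2 beta libraries for 6, and both delta libraries for 6. Kcnk12 and Kcnk13, related background channels, had one in all 7 libraries, at ranks of 60.3 to 82.0 and 59.2 to 77.6. Kcnk3, an acid-sensitive channel, lacked one in beta 2 alone. Its ranks were 52.6 and 56.5 in the alpha, 40.9 and 49.5 in beta 1 and 3, and 49.7 and 59.3 in the delta libraries (exact permutation p = 0.143, adjusted p = 0.811).

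Kcnk16, an alkaline-activated channel found mainly in the pancreas and best known from beta cells, had a TSS peak in both delta libraries, no alpha library, and beta 3 alone of the beta libraries. Its -log10 q was 4.44 and 2.01 in delta 1 and 2 and 2.22 in beta 3. This was the only channel gene with a TSS peak in both delta libraries and none in alpha, at ranks of 52.6 and 49.2 (exact permutation p over the 3 cell types = 0.257, adjusted p = 0.811). The difference was bound to the most upstream start. A second annotated start lies 1.78 kb downstream, and all 7 libraries had a peak there, with a -log10 q of 16.0 and 25.3 in the alpha, 3.90, 4.47, and 7.73 in the beta, and 34.2 and 10.4 in the delta libraries. With that start counted, Kcnk16 was open in every library. A further region 10.4 kb downstream of the first start was called in both alpha and both delta libraries and in no beta library.

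The promoter at the upstream start of Kcnk16 (chr14:20269150-20269449, minus strand) is shown as the sequence on which delta and alpha libraries differed. Capitals mark the reverse complement of CATCTG.
Kcnk16: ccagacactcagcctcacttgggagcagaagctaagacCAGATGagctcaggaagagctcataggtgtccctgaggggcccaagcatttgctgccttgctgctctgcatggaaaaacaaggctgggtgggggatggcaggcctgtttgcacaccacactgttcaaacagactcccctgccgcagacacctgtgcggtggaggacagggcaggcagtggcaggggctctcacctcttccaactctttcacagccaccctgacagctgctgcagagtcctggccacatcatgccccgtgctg

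Kcnk10, of the mechanosensitive channels, had the reverse order. A TSS peak was called in both alpha libraries (-log10 q 6.65 and 4.88), in beta 2 (1.82), and in no delta library. Here too a start 3.18 kb downstream had a peak in all 7 libraries. Kcnk6 had TSS peaks in both alpha libraries (-log10 q 1.13 and 5.60), in beta 1 (0.0774) and beta 3 (0.517), and in no delta library (exact permutation p = 0.0667, adjusted p = 0.811).

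Of the 8 calcium- or sodium-activated channels, 4 had a TSS peak in both alpha, 5 in 2 or more beta, and 2 in both delta libraries. Kcnn2, a small-conductance calcium-activated channel, ranked 92.3 to 97.1 in all libraries, second among the channel genes. Kcnn3, of the same group, was open in all 7 at 49.5 to 76.7. Kcnn4, the intermediate-conductance channel, had TSS peaks in 5 libraries, of which that of beta 3 alone reached a -log10 q of 2 (2.52), but 4 regions of its locus, from -5.25 to 29.5 kb of the TSS, were called in all 7, the farthest of them 116 bp from the start of the neighbor Smg9. Kcnt2, a sodium-activated channel, had TSS peaks in both alpha libraries (-log10 q 5.0 and 2.84), weak ones in beta 1 (0.0774) and 3 (0.517), and none in the delta libraries (exact permutation p = 0.0476, adjusted p = 0.811). With genes that lack a TSS peak set to 0 the exact permutation p was 0.143. Kcnma1, the large-conductance channel opened by calcium and voltage, had a TSS peak only in beta 1 (0.0774) and 3 (1.43) at its 5′ end. Around the starts 9.63 to 10.6 kb further in, however, all libraries except delta 1 had a peak. Its -log10 q was 1.61 and 5.86 in alpha 1 and 2, 1.07, 1.27, and 4.32 in beta 1, 2, and 3, and 1.13 in delta 2. Only alpha 2 and beta 3 thus reached 2.

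Of the 17 auxiliary and other members, 7, 8, and 7 had a TSS peak in 2 or more alpha, beta, and delta libraries. Kcnab1 and Kcnab2, the beta subunits of Shaker-type channels, and Kcnmb4, a subunit of the large-conductance channel, were open in all 7 libraries. The Kcnip genes encode calcium-binding proteins that bind the Kcnd subunits of A-type channels, and the 4 of them differed. Kcnip1 had a TSS rank percentile of 78.2, 67.0, and 58.7 in the beta, 52.6 and 60.5 in the delta, and 45.7 in alpha 2, with no TSS peak in alpha 1 (exact permutation p = 0.0286, adjusted p = 0.802). By -log10 q the order differed, at 5.53, 3.10, and 3.52 in beta 1, 2, and 3 and 4.48 and 6.01 in delta 1 and 2. Delta 2 was thus the highest by that value. This 5′ end is listed as the start of a processed transcript, and a protein-coding transcript starts 149.7 kb downstream. There the -log10 q was 10.1 and 4.05 in the delta and 1.01 and 2.95 in the alpha libraries. In beta 1 and 3 it was 1.07 and 1.43, and beta 2 lacked a peak, so both delta libraries were above every beta library at that start. Kcnip3, also known as a calcium-dependent repressor of transcription, had TSS peaks in both alpha libraries (-log10 q 3.47 and 1.14) and both delta libraries (2.15 and 0.966), and no beta library had one (exact permutation p = 0.0286, adjusted p = 0.802). With only peaks whose -log10 q reached 2, alpha 1 and delta 1 were left, and the exact permutation p was 0.876. An intronic region 3.62 kb into Kcnip3 had the same pattern at higher confidence, with a -log10 q of 4.0 and 12.2 in the alpha and 6.22 and 3.02 in the delta libraries. Kcnip2 had weak TSS peaks in beta 1 and 3 only, and Kcnip4 lacked one in delta 2 only.

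The calls at the TSS were then counted for each ordered pair of cell types, as genes with a TSS peak in 2 or more libraries of one and in no library of the other. A peak was thus asked of 2 of the 3 libraries for beta cells and of both for the others, and absence of 3 or 2 libraries. Alpha against beta was met by 2 channel genes, Kcna5 and Kcnip3 (2.17%, against 1.29% of all genes). Alpha against delta was met by Kcnk10, Kcnk6, and Kcnt2 (3.26%, against 1.21%). Beta against alpha was met by Kcnip2, Kcnma1, and Kcnrg, a regulator of channel assembly (3.26%, against 2.37%). Beta against delta was met by the same 3 and by Kcnk6 and Kcnt2 (5.43%, against 2.6%). Delta against alpha was met by Kcnk16 (1.09%, against 0.542%), and delta against beta by Kcna5, Kcna7, and Kcnip3 (3.26%, against 0.807%). With counts between 1 and 5 these shares differ from those of all genes by few genes. Pairs of 2 or 3 libraries cannot reach a p of 0.05 in an exact permutation test. Leaving out any 1 library except beta 2 moved at least 1 of the 6 counts by more than 1.5 times, to between 0 and 8 genes, with the single list left standing for the cell type where it was an alpha or delta library. No beta call against alpha or delta was left without beta 1, and with a -log10 q of 2 or more beta against delta also fell to 0 and alpha against beta rose to 11. Of the genes that beta cells had and others lacked, none had a -log10 q of 2 in more than 1 beta library.

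The ranks were also read without a threshold, with genes that lack a TSS peak set to 0 in every library. Every beta library was below every other library for 8 channel genes (8.70%, against 4.98% of all genes), among them Kcna4, Kcna5, Kcnh3, Kcnip3, Kcnk1, Kcnk3, and Kcns3. Every beta library was above for Kcng3 alone (1.09%, against 3.53%). The alpha libraries were above all others for 8 (8.70%, against 5.93%) and below for 7 (7.61%, against 4.18%). The delta libraries were above for 3 (3.26%, against 3.83%) and below for 2, Kcnab1 and Kcnip4 (2.17%, against 2.41%).

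The loci were then examined as the gene body with 20 kb on either side. Channel genes were long, with a median of 32.2 kb against 17.4 kb for all genes and up to 1135 kb for Kcnip4. The median channel locus held 4.59 ± 1.09 peaks per 100000 peaks of the library for alpha (SD, n = 2), 3.70 ± 1.44 for beta (SD, n = 3), and 4.53 ± 1.04 for delta cells (SD, n = 2), differences smaller than the spread between replicates. The median over all genes was 3.31 ± 0.370, 3.09 ± 0.882, and 3.24 ± 1.01. Per 100 kb of locus the channel genes had 5.24, 4.27, and 4.78 and all genes 5.14, 4.35, and 4.84, so once length was taken into account the loci held about as many peaks as those of other genes. For peaks whose -log10 q reached 2 the density of the channel loci was the lower in each cell type, at 4.93, 4.78, and 5.04 against 6.06, 5.71, and 5.43.

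Peaks that overlap between libraries were merged, and 856 regions in the channel loci were called in at least 2 libraries, of 133698 in all. Introns held 507 of them (59.2%) and TSS windows 76 (8.88%). All 7 libraries had called 117 regions (13.7%, against 13.3% of all regions). These lay in the loci of 56 channel genes, of which 36 did not have a TSS peak in all 7 libraries. Kcnip4 (72 regions), Kcnma1 (47), and Kcnip1 (44) had the most, by numbers not divided by gene length. In TSS windows 27.6% of regions were called in all 7 libraries and in introns 7.69%. Neither these shares by place nor the number of genes with a region in all 7 libraries was compared with all genes. Longer loci have more room for such a region, so these counts do not set channel genes apart. Loci can hold other genes, and 8 channel genes lie in pairs whose gene bodies or flanks overlap, Kcnj9 with Kcnj10, Kcnip1 with Kcnmb1, Kcnj16 with Kcnj2, and Kcnj5 with Kcnj1.

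Regions called in every replicate of 1 cell type and in no other library numbered 24 for alpha (2.80%, against 2.42% of all regions), 2 for beta (0.234%, against 0.592%), and 18 for delta cells (2.10%, against 2.06%). Regions called in every library except those of 1 cell type numbered 3 for alpha (0.350%, against 0.513%), 15 for beta (1.75%, against 1.43%), and 2 for delta cells (0.234%, against 0.138%). These shares lay near those of all regions. The alpha number was 45 without beta 1 and 40 without delta 1. The beta number was 7 without beta 1, 41 without beta 2, and 28 without beta 3, where 2 beta lists have to share a region in place of 3, and it was 4 without delta 1 and 5 without delta 2. With a single alpha or delta list in place of the pair, the alpha number was 292 or 361 and the delta number 139 or 415.

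**Figure D5:**
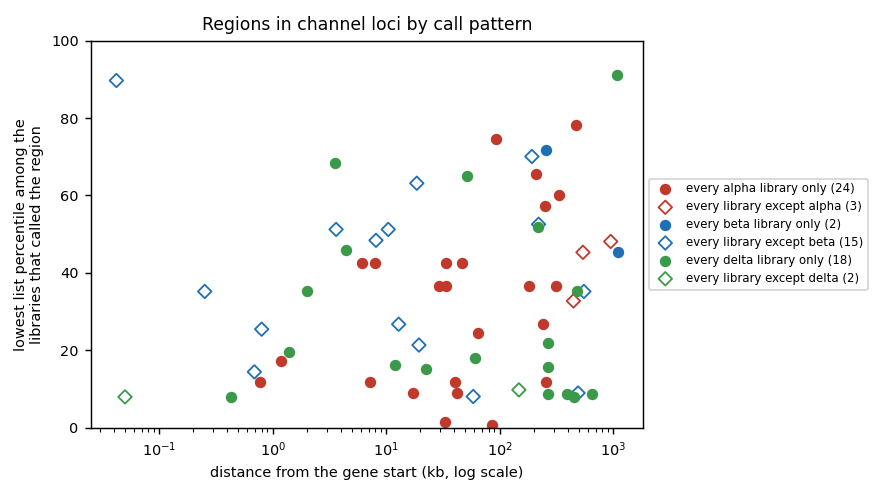
Regions of the channel loci called in every library of 1 cell type only (filled circles) or in every library except those of 1 cell type (open diamonds), in red for alpha, blue for beta, and green for delta, by distance from the gene start in kb (x axis, log scale) and by the lowest within-list percentile by -log10 p among the libraries that called it (y axis, 0 to 100). The open blue diamond at 0.042 kb and a percentile of 89.7 is the TSS of Kcna5, and most filled circles are far from a start, at a median of 44.4 kb for alpha and 139.5 kb for delta.

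For each cell type the region with the highest confidence in its weakest library is shown, as 300 bases around the summit on the plus strand of GRCm38. All 3 lie in introns of auxiliary or A-type subunits, far from the 5′ end of the host gene. The alpha region (chr6:21684260-21684559) lies 469.0 kb into Kcnd2, which encodes an A-type subunit, and also within the annotated transcript 5330437M03Rik, 3218 bp from its start. It had a -log10 q of 4.34 and 11.2 in alpha 1 and 2. The beta region (chr3:65367896-65368195) lies 258.7 kb into Kcnab1 and had a -log10 q of 3.52, 3.04, and 2.57 in beta 1, 2, and 3. The delta region (chr5:48448938-48449237) lies 1075.8 kb into Kcnip4 and had a -log10 q of 12.2 and 19.7 in delta 1 and 2. Capitals mark TGCTGA of MAF factors, the E-box CATCTG, and the CCAAT box, each on either strand.
Kcnd2: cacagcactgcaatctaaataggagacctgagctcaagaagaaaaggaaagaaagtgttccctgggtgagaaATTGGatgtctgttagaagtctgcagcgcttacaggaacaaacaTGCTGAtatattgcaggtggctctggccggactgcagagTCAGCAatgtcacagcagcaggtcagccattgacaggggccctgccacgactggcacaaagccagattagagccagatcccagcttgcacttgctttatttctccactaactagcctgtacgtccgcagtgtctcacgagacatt
Kcnab1: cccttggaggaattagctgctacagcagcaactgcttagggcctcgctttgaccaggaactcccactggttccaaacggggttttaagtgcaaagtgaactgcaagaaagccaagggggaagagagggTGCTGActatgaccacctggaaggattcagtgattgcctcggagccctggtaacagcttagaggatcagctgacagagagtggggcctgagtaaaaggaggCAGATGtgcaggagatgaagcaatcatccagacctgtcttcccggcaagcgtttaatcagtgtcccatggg
Kcnip4: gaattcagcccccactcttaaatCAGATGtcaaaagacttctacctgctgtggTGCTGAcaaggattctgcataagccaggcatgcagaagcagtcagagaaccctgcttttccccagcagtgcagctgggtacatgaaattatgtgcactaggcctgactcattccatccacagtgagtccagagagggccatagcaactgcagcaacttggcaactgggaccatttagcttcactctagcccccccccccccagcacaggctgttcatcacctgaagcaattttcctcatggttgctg

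The next alpha regions lay in introns of Kcnn3 (93.8 kb into the gene, -log10 q 3.30 and 4.34) and Kcnd3 (209.0 kb, 2.16 and 2.95). The second beta region, also in Kcnip4, had a -log10 q of 0.0774, 1.82, and 1.43. Kcnip4 thus held the strongest delta region and the weaker beta region. It also held a region 952.5 kb into the gene called in every beta and delta library and in no alpha library. Kcnip4 is the longest channel gene, however, and has the most regions, 72. Among the regions that only the beta libraries lacked, the Kcna5 TSS came first, followed by an intron of Kcnip1 (192.5 kb, -log10 q between 1.92 and 5.94) and the flank of Kcnk6, where the region lies 143 bp from the start of Catsperg1.

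Motifs were searched in the 300 bases of each promoter on both strands. The right motif of RE1 (GGACAGC) occurred in 13 of 92 channel promoters (14.1%, against 6.92% of all promoters) and the left motif (TTCAGCACC) in 2, Kcnh6 and Kcnk3 (2.17%, against 0.383%). The forkhead letters TGTTTAC occurred in 3.26% (3.05% of all promoters), TAATTA of homeobox factors in 2.17% (5.30%), TGCTGA in 15.2% (18%), CATCTG in 18.5% (15.2%), and CCAAT in 29.3% (39.0%). Among the regions of the channel loci the left motif of RE1 occurred in 0.935%, against 0.363% of all regions, and the shares of the other motifs lay within 1 percentage point of those of all regions. Counts of 2 and 13 promoters are small, and a match is not evidence of binding. In the promoter of Kcnk3 (chr5:30587920-30588219, plus strand), shown as the second holder of the left motif, this motif lies reversed beside the right one, with 1 base between them, in an order other than that of Kcnh6.
Kcnk3: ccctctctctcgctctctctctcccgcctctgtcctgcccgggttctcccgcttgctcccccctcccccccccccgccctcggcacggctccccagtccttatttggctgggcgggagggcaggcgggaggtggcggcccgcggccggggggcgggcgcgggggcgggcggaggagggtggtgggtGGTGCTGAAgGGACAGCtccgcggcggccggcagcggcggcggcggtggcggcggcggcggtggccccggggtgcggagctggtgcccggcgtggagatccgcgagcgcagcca

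Finally, genes that work with these channels but lie outside the family were counted from a list of 13 partners. A TSS peak in 2 or more libraries was called for 7 of them in alpha and in delta cells, for 10 in beta cells, and for 5 in all 7 libraries. Among them were Abcc8, the sulfonylurea receptor of the ATP-sensitive channel, Dpp10, an auxiliary subunit of A-type channels, Amigo1, a partner of Kcnb subunits, and the pacemaker channel Hcn3. Abcc9, the other sulfonylurea receptor, had no TSS peak in any library. Of all protein-coding genes, 56.8%, 56.1%, and 54.1% met the rule of 2 libraries in alpha, beta, and delta cells, and 41.5% had a TSS peak in all 7. Partners whose TSS peak reached a -log10 q of 2 numbered 6 in each alpha and 7 in each delta library. In beta 1, 2, and 3 they numbered 2, 4, and 5, so the higher beta count rests on peaks of low confidence.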

How the data were processed

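Reads were single-end and 50 bases long. Per the study's methods, the authors trimmed them in Trimmomatic and mapped them by Bowtie 2 to a GRCm38 (mm10) genome that held no mitochondrial DNA. Picard flagged repeated reads, and alignments in blacklisted parts of the genome were left out. Each library then had its own MACS2 call. The deposited lists hold intervals with the authors' -log10 p and -log10 q values. The fold enrichment, also by the authors, is the ratio of summit signal to local background, and the deposited score was not analyzed. Their lowest -log10 p was 2.01.

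Rows repeating an interval were counted once, with the strongest summit. Genes were taken from GENCODE vM21. Peaks overlapping by at least 1 bp were merged, and of 834695 merged regions 0 differed from those of bedtools 2.31.1. The steps were tested on simulated lists, where all 200 genes made selective per cell type were found among 21938. The study's test on read counts (DiffBind) needs reads and was not made. An absent peak has no detection limit here. Promoters were read from GRCm38, and 96 RefSeq promoters of 71 channel symbols were identical to it.

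Genes named in the text were those known from islet physiology, those selective at the TSS in every replicate of the higher cell type, the 8 with the largest share of spread between cell types, the 3 with the densest loci, and for each cell type the 3 best selective regions. Results of some of these genes are not reported here, although the counts include them. Others illustrate a class or pattern and were chosen after their values were seen. Setting genes without a TSS peak to 0 was chosen after seeing the data. The members, lists, and tests were chosen with earlier results of these data known. Deviations of same-numbered libraries correlated between -0.0213 and 0.0341, and the main permutation test treated all libraries as independent. Per the study's methods, however, different endocrine cells were taken from the same animals. This can hold for beta cells with alpha or with delta cells. Alpha and delta cells came from mice with different Cre genes and cannot share animals. A difference between alpha and delta libraries therefore cannot be told apart from one between the mouse lines. Which libraries share a mouse pool was not given in the sources used here, so pairing by pool was not tested. Python 3.11.15 with numpy 2.4.6 and pandas 2.3.3 was used.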

Additional observations from a re-analysis of the deposited data

How the results depend on the processing

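Each count of channel genes and regions was recomputed with stricter lists, other windows, and each library left out. With only peaks whose -log10 q reached 2, a TSS peak in 2 or more beta libraries was left for 25 genes, in all libraries for 13, and in none for 34. The calls became 11 for alpha against beta, 5 for alpha against delta, 1 for beta against alpha, 0 for beta against delta, 2 for delta against alpha, and 5 for delta against beta, and the alpha median of locus peaks was 5.94 per 100000. With the 25000 peaks of lowest p per list, 22 alpha, 21 beta, and 22 delta genes were open, 9 in all libraries and 45 in none. The calls were then 5 for alpha against beta, 6 and 2 for beta against alpha and delta, and 2 for delta against alpha, and selective regions numbered 5, 6, and 9 for alpha, beta, and delta. With a TSS window of 3 kb, 3 genes had no TSS peak, beta against alpha gave 5, beta against delta 9, and delta against alpha 0. With any transcript start the calls were 1 for beta against alpha and 2 for delta against alpha. The median locus had 1.66, 1.30, and 1.29 peaks per 100000 in alpha, beta, and delta cells without flanks and 8.5, 6.36, and 8.09 with 50 kb. With coverage of at least 0.5 of a region, 0 beta regions were left.

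Leaving out 1 library gave 26 to 45 open genes in beta cells, 2 to 7 for alpha against beta, 3 to 8 for alpha against delta, 0 to 4 for beta against alpha, 0 to 8 for beta against delta, 1 to 6 for delta against alpha, and 3 to 7 for delta against beta. Selective regions ranged from 25 to 361 for alpha, 3 to 41 for beta, and 21 to 415 for delta cells, where the highest values come from a single list in place of a pair.

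The unadjusted calls of single genes rest on few assignments. A replicate block permuted libraries within a replicate number over 36 assignments. No gene can then reach an exact permutation p under 0.05, so this setting could not keep a call. The p of Kcng3 and Kcnh3 was 0.0556, the smallest the block can give, and that of Kcna5, Kcnip1, Kcnip3, and Kcnt2 0.111. Within sex, Kcng3 alone of the 6 stayed under 0.05. No gene passed after adjustment in the first place, so the loss of an unadjusted call says little. Of the 6 genes, Kcna5 and Kcnh3 kept theirs under both stricter lists, and Kcna5 lost it with a window of 3 kb, where its p was 0.0571. All 6 lost it without beta 1, beta 2, or beta 3. Each cell type then has 2 libraries and no gene can reach a p under 0.05, so that loss says nothing about the genes. With genes that lack a TSS peak set to 0, chosen after seeing the data, Kcna5, Kcng3, Kcnip1, and Kcnip3 kept their call, and Kcnh3 (0.105) and Kcnt2 (0.143) lost it. A missing TSS peak in a library of fewer reads is not evidence of closed chromatin.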
